A study of Arabidopsis thaliana with 6 samples.

Results

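CML38 (AT1G76650) and TCH3 (AT2G41100, also named CML12) are calcium sensor genes of Arabidopsis thaliana, found here by gene symbol or title in the authors' deposited tables of probe sets up or down between 2 ANAC069 genotypes. They are 2 genes among the 22810 probe sets of the Affymetrix ATH1 array, on which a probe set is a group of short probes summarised into 1 signal. RNA came from plants 4 weeks old that had been kept in 200 mM NaCl for 3 h, with 3 arrays of a single overexpression line, OE-3 (OE), and 3 arrays of a single knockout line, KO-2, with the SALK_095231C insertion (KO). Neither the promoter that drives ANAC069 in OE nor the plant part sampled is stated in the labels, and wild-type or unsalted plants were not analysed here. Every difference below is therefore OE against KO under salt.

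Calcium enters the cytosol of plant cells within moments of salt, touch, wounding or pathogen contact. Calmodulin and calmodulin-like proteins bind it through EF-hand loops and pass the signal on by binding other proteins, while calcium-dependent kinases sense it and phosphorylate their targets directly. TCH3 is a classic touch-induced gene. CML38 is known for induction by wounding and by low oxygen, and its protein joins cytosolic RNA granules in plants short of oxygen.

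Both genes come from tables whose probe sets were chosen by their difference between OE and KO: in the authors' deposited tables every unadjusted p is under 0.05 and every absolute fold at least 2. In the authors' deposited table CML38 is up by 6.98-fold (p = 0.041) and TCH3 by 2.71-fold (p = 0.0118), so CML38 has the larger fold and lies closer to the limit on p. These values come from the same 6 arrays as all those below, so the levels of both genes are a description and no test of them is given.

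ANAC069 itself, a NAC transcription factor gene, had a signal of 386, 364 and 391 on KO replicates 1, 2 and 3, and of 2991, 2386 and 2360 on OE replicates 1, 2 and 3. The groups did not overlap, with the high values on the arrays labelled OE. How much intact transcript KO plants had cannot be read from their signal, since the labels do not say where the probes lie on the disrupted gene.

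CML38, read by probe set 259879_at, was higher in OE and uneven in both genotypes. Its signal was 40.5, 239 and 217 on KO replicates 1, 2 and 3. In OE it was 800, 560 and 1595 on replicates 1, 2 and 3. All OE values lay above all KO values, and within KO the first replicate stood far below the other two. Means were 985 ± 542 for OE and 166 ± 109 for KO (SD, n = 3 for both). On the log2(signal + 16) scale the difference was 2.61 (SE 0.58), a 6.09-fold higher level in OE. Without KO replicate 1 it was 1.90 (SE 0.38), or 3.74-fold, so that 1 array moved the fold by more than any other array left out.

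TCH3, read by probe set 267083_at, was also higher in OE, and was more even than CML38. Its signal was 1939, 3768 and 3848 on KO replicates 1, 2 and 3. In OE it was 7738, 8537 and 8500 on replicates 1, 2 and 3. The groups again did not overlap, the first KO replicate was again the lowest, and the OE arrays lay close together. Means were 8258 ± 451 for OE and 3185 ± 1080 for KO (SD, n = 3 for both). The log2 difference was 1.43 (SE 0.25), or 2.70-fold, and 1.11 (SE 0.13), or 2.16-fold, without KO replicate 1.

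Groups that do not overlap were common on these arrays. Of the 15922 probe sets tested, 12.9% had all OE values above all KO values, and 31.2% had groups that did not overlap in either direction. In the authors' up table, it was 100% of the 322 named and tested probe sets. Both genes passed the filter on low signals.

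**Figure D1:**
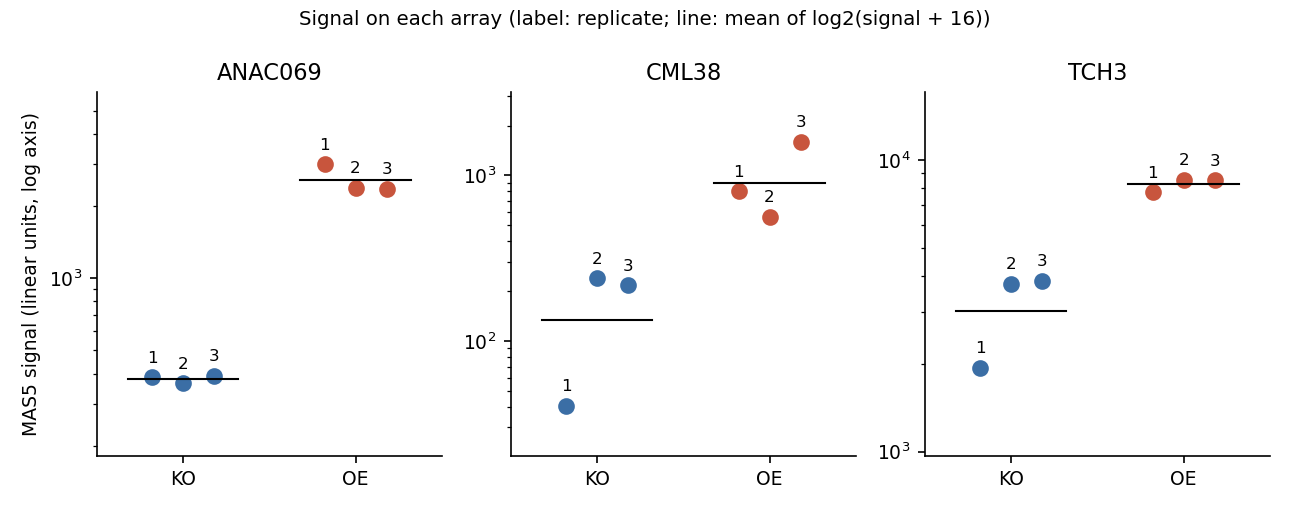
MAS5 signal (log axis) of ANAC069, CML38 and TCH3 on each array, with the replicate number above each point and a line at the group mean of log2(signal + 16) turned back to the linear scale. For each gene the 3 OE points lie above the 3 KO points, and KO replicate 1 is the lowest point for CML38 (40.5) and for TCH3 (1939) but not for ANAC069.

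The spread within a genotype separated the calcium sensor genes more than their direction did. CML38 had a pooled within-genotype SD of 1.01 on the log2 scale, larger than that of 98.7% of the probe sets tested. For TCH3 this SD was 0.40, larger than that of 82.5%. The spread of TCH3 lay in KO, where its SD was 0.56 on the log2 scale and its highest signal was 1.98 times its lowest. In OE the SD of TCH3 was 0.08. CML38 was uneven in both, with a highest signal 5.91 times the lowest in KO and 2.85 times the lowest in OE.

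Taken array by array, the 9 pairs of 1 OE and 1 KO array gave a log2 difference of 1.17 to 4.83 for CML38 and of 1.0 to 2.13 for TCH3. The smallest gap was thus 2.25-fold for CML38 and 2.01-fold for TCH3. The largest was 28.5-fold for CML38, between OE replicate 3 and KO replicate 1, and 4.37-fold for TCH3.

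These arrays did not settle whether CML38 differed more between genotypes than TCH3. The log2 level of CML38 minus that of TCH3 within an array was -3.18 ± 0.75 for OE and -4.35 ± 0.66 for KO (SD, n = 3 for both). Only the shift between genotypes can be read from this, since levels of different probe sets are not on a common scale. The shift was 1.17 (SE 0.58), and the OE value was higher in 8 of the 9 array pairs, so the groups overlapped. Left-out arrays moved the shift between 0.78 (without OE replicate 3) and 1.53 (without OE replicate 2), and with the 3' to 5' ratio of control genes as a covariate, described below, it was 2.34.

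**Figure D2:**
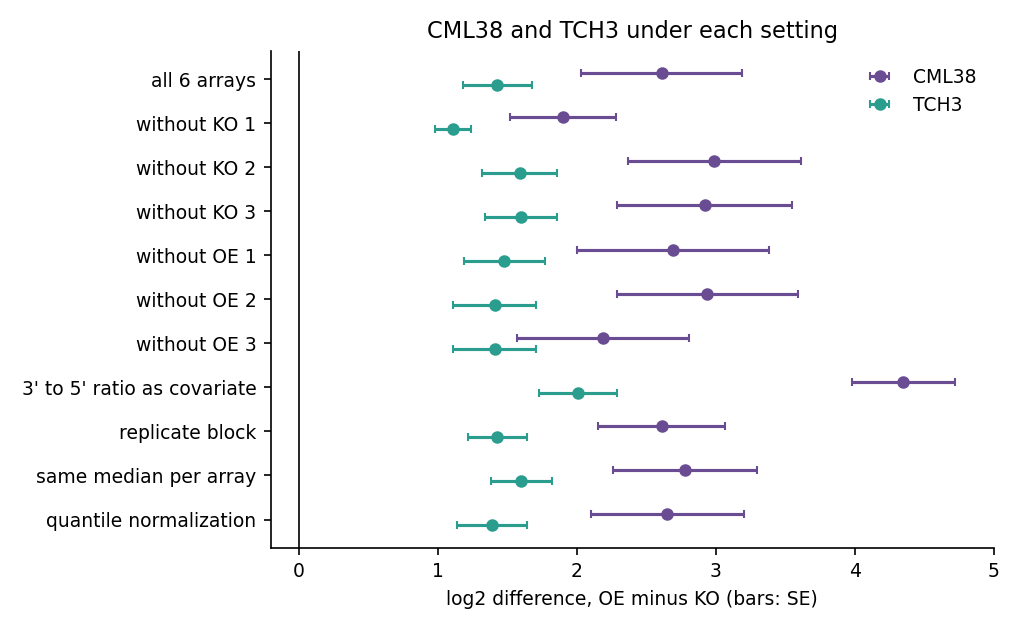
Log2 difference (OE minus KO) of CML38 and TCH3 with all 6 arrays and under other settings, with bars of 1 SE. Both genes stay above 0 in each setting shown, CML38 between 1.90 and 4.35 and TCH3 between 1.11 and 2.01.

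The order of the arrays within a genotype was only partly shared. In KO both genes were lowest on replicate 1, by 1.41 (CML38) and 0.65 (TCH3) below the group mean on the log2 scale. In OE, CML38 was highest on replicate 3 and lowest on replicate 2, while TCH3 was lowest on replicate 1, by 0.09. ANAC069 was highest on OE replicate 1, where neither calcium sensor gene peaked. KO replicate 1 was the lowest KO array for 55.9% of the 322 probe sets of the up table and for 39.3% of all tested. For the 15 other calcium signalling genes in the up table the share was 40.0%.

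A sign of RNA quality also varied between the arrays. The mean log2 ratio of 3' to 5' signals of 6 actin, GAPDH and ubiquitin control pairs was 1.8, 1.57 and 1.53 on KO replicates 1, 2 and 3 and 1.97, 1.94 and 1.73 on OE replicates 1, 2 and 3. It was higher in OE on average, though KO replicate 1 was above OE replicate 3. Within each genotype its order was only partly opposed to that of CML38. KO replicate 1 had the highest ratio and the lowest CML38 of its group, and OE replicate 3 the lowest ratio and the highest CML38. Between KO replicates 2 and 3, and between OE replicates 1 and 2, the array with the higher ratio also had the higher CML38. TCH3 was lowest on replicate 1 of each genotype, where the ratio of that genotype was highest. With the ratio as a covariate the log2 difference was 4.35 (SE 0.37), or 20.5-fold, for CML38 and 2.01 (SE 0.28), or 4.03-fold, for TCH3. The ratio itself differed between genotypes, with a mean of 1.88 in OE and 1.63 in KO. With 6 arrays this fit cannot fully separate the ratio from genotype.

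In the deposited annotation the probe set of CML38 aligns to chromosome 1 from 28766908 to 28767442 on the minus strand, and that of TCH3 to chromosome 2 from 17138130 to 17139406 on the plus strand. No label names the genome build of these positions, and exons are not annotated there. Both genes are annotated there to calcium ion binding and to the plasma membrane, CML38 also to the response to wounding and TCH3 to responses to mechanical stimulus, temperature and darkness. In NCBI RefSeq's gene table (TAIR10.1, used for names only), CML38 lies between AT1G76640 (CML39) and AT1G76660, and TCH3 between AT2G41090 and AT2G41105. No probe set is named for any of these neighbours.

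By name, RefSeq lists 37 genes of the calmodulin, calmodulin-like and calcineurin B-like list. Of these, CML38 and TCH3 were the only 2 with a named probe set. A gene of these families that is named only by locus would be missed by this match. AT3G01830 and AT3G25600, named by locus and annotated to calcium ion binding, are described below. Names exist here only for probe sets of the authors' tables, so the other 35 genes of that list were not analysed here. None of the 23 RefSeq genes that match the root, leaf, flower, seed and guard cell markers had a named probe set either, so the plant parts sampled could not be checked. In bulk RNA, fewer cells of a type and less RNA per cell cannot be told apart.

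Around CML38 and TCH3, most named genes of the calcium signalling lists were higher in OE. Of 17 further named genes of these lists, 10 were listed as calmodulin-binding, and such genes need not sense or carry calcium themselves. Of the 17, 14 were called higher in OE and 1 lower at an adjusted p under 0.05 in limma, and 2 did not pass. Over all probe sets tested 3.03% were called higher and 1.84% lower, so 62.2% of all calls were higher, against 84.7% once each array was shifted to a common median. Among the 540 named and tested probe sets, which the authors chose on these samples, 49.6% were called higher and 21.9% lower. The median log2 difference of the 17 was 1.15, against 1.07 for all named and -0.08 for all tested probe sets. The authors' tables held 15 of the 17 as up and 2 as down, so this balance is not independent evidence. Without KO replicates 1, 2 and 3 in turn 14, 5 and 9 were called higher, and without OE replicates 1, 2 and 3 in turn 14, 2 and 3, against 8 with the ratio covariate and 9 with a replicate block.

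Both named calcium-dependent protein kinase genes were higher in OE, but both came from the authors' up table, which fixed their direction. By name, RefSeq lists 63 genes of the calcium-regulated kinase list, and only these 2 had a named probe set. Over all probe sets tested 3.03% were called higher, and among the named ones 49.6%. CPK28, a kinase that limits immune signalling by promoting turnover of the receptor-associated kinase BIK1, read 768 ± 39.2 in OE against 340 ± 54.1 in KO (SD, n = 3 for both). Its log2 difference was 1.15 (SE 0.15, adjusted p = 0.0121 in limma). CPK32, a kinase of abscisic acid signalling, read 1701 ± 491 in OE against 704 ± 121 in KO (SD, n = 3 for both), with a log2 difference of 1.23 (SE 0.21, adjusted p = 0.0228 in limma). CPK28 did not pass without OE replicate 2 or OE replicate 3. CPK32 passed without KO replicate 1 and without OE replicate 1 but in none of the other 4 such fits.

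Of the 2 named channel genes, both from the authors' up table, 1 passed. By comparison, 3.03% of all probe sets tested and 49.6% of the named ones were called higher. RefSeq lists 83 genes of the channel, pump and exchanger list by name, and the others had no named probe set. CNBT1, also named CNGC20, encodes a cyclic nucleotide-gated channel and had a log2 difference of 1.09 (SE 0.21, adjusted p = 0.032 in limma). GLR2.8, a glutamate receptor-like channel gene, read 107 ± 8.33 in OE against 45.2 ± 16.2 in KO (SD, n = 3 for both) and did not pass (log2 difference 1.04, SE 0.26, adjusted p = 0.0579 in limma). CNBT1 passed in 2 of the 6 fits that leave out 1 array, and with the ratio covariate its log2 difference was 0.72 and it did not pass (adjusted p = 0.383 in limma).

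Besides CML38 and TCH3, 6 named genes are annotated to calcium ion binding, and all 6 were called higher. All 6 came from the authors' up table, so their shared direction was fixed by that choice. Over all probe sets tested 3.03% were called higher, and among the named ones 49.6%. The largest difference was that of AT3G01830, named here by locus, which read 327 ± 117 in OE against 54.6 ± 30.8 in KO (SD, n = 3 for both; log2 difference 2.33, SE 0.37, adjusted p = 0.0187 in limma). AT3G25600 had a log2 difference of 1.41 (SE 0.30). RBOHD, the NADPH oxidase that makes reactive oxygen at the plasma membrane and carries EF hands, had one of 1.01 (SE 0.19), and ABI1, a protein phosphatase of abscisic acid signalling, one of 1.07 (SE 0.20). The other two are CPK28 and CPK32. None of the 6 passed without OE replicate 2 or without OE replicate 3, and RBOHD and ABI1 did not pass with the ratio covariate (adjusted p = 0.0656 and 0.151 in limma).

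Of 10 named genes annotated as calmodulin-binding, 8 were called higher and 1 lower. The authors' tables held 8 of the 10 as up and 2 as down, so the directions were fixed by that choice. Among all named probe sets 49.6% were called higher and 21.9% lower, and over all tested 3.03% and 1.84%. The receptor kinase gene RLK1 had a log2 difference of 1.66 (SE 0.26), EDA39 (the IQ-motif gene IQM1) one of 1.54 (SE 0.23) and WRKY11, a transcription factor of basal defence, one of 1.47 (SE 0.16). AT1G75580, the small auxin-up RNA gene SAUR51, fell by 1.64 (SE 0.26). The smallest differences were 1.01 (SE 0.16) for AT5G62570, named CBP60a in RefSeq, and 1.0 (SE 0.18) for ACA.l, listed in the table as an ATPase. The IQ-domain gene iqd17 had a log2 difference of -1.02 (SE 0.28, adjusted p = 0.0686 in limma) and did not pass. WRKY11 and AT2G26190 passed in all 6 fits that leave out 1 array, WRKY15 in 5, RLK1, EDA39, AT1G75580 and ACA.l in 3, and AT5G62570 in 2. With the ratio covariate RLK1 (adjusted p = 0.064 in limma), AT1G75580 (0.121), ACA.l (0.155) and AT5G62570 (0.201) did not pass.

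**Figure D3:**
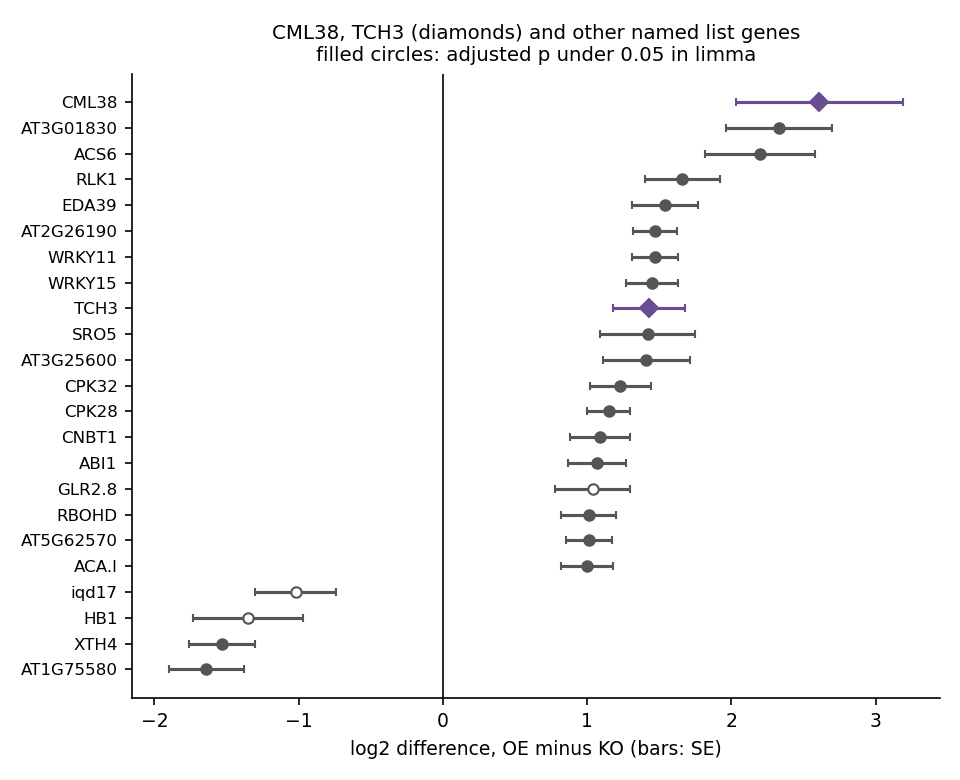
Log2 difference (OE minus KO, bars of 1 SE) of CML38 and TCH3 (diamonds) and of the other named genes of the calcium, touch and low-oxygen lists (circles, filled where limma's adjusted p was under 0.05). Of the 23 genes shown 19 lie above 0, and AT1G75580, XTH4, HB1 and iqd17 lie below it.

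The named touch genes besides TCH3 were split. ACS6 came from the authors' up table and XTH4 from their down table, so their directions were fixed by that choice. The shares called were 3.03% higher and 1.84% lower over all probe sets tested, and 49.6% and 21.9% among the named ones. ACS6, an enzyme gene of ethylene synthesis, read 1774 ± 565 in OE against 402 ± 251 in KO (SD, n = 3 for both; log2 difference 2.20, SE 0.38, adjusted p = 0.0228 in limma). XTH4, which encodes a xyloglucan endotransglucosylase that remodels the wall, read 2831 ± 784 in OE against 8129 ± 1762 in KO (SD, n = 3 for both; log2 difference -1.53, SE 0.23, adjusted p = 0.0167 in limma). Each passed in 3 of the 6 fits that leave out 1 array, and with the ratio covariate neither did (adjusted p = 0.0588 and 0.125 in limma). TCH3 shared its direction with ACS6 and not with XTH4, which follows from the authors' table each was taken from.

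The low-oxygen list, to which CML38 is related by its known induction, held 2 named genes of 15. SRO5 came from the authors' up table and HB1 from their down table, so that choice fixed their directions. Calls of higher made up 3.03% of all probe sets tested and 49.6% of the named ones. SRO5, a gene of oxidative stress responses under salt, read 138 ± 32.4 in OE against 43.5 ± 21.5 in KO (SD, n = 3 for both; log2 difference 1.42, SE 0.33, adjusted p = 0.0476 in limma), and it passed without KO replicate 1 but with none of the other 5 arrays left out, nor with the ratio covariate (adjusted p = 0.349 in limma). HB1, the class 1 hemoglobin gene, read 30.9 ± 25.4 in OE against 94.0 ± 13.4 in KO (SD, n = 3 for both) and did not pass (log2 difference -1.35, SE 0.38, adjusted p = 0.0717 in limma). On OE replicates 2 and 3 HB1 read 15.0 and 17.6, close to the 16 added before taking logs. The fermentation genes that define the low-oxygen response, ADH1 and PDC1, are not among the named probe sets.

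The genes whose pattern over the 6 arrays was most like that of CML38 were sought among the other 540 named probe sets. Likeness was the root mean square difference between log2(signal + 16) profiles, each centred on its own mean, so a smaller value is a closer pattern. The 5 nearest to CML38 were AT1G25400 (0.28), STZ (0.33), ERF11 (0.36), AT3G02840 (0.37) and AT3G04640 (0.43), which were also the 5 nearest among all 15922 tested probe sets. STZ, also called ZAT10, is a zinc finger repressor gene of salt and drought responses, and ERF11 a repressor gene of ethylene responses. STZ read 263, 1881 and 1075 on KO replicates 1, 2 and 3, then 3846, 4716 and 7894 on OE replicates 1, 2 and 3. AT1G25400 read 34.9, 204 and 151 in KO and 646, 599 and 903 in OE, in the same order of replicates. Like CML38, both had their lowest value on KO replicate 1 and their highest on OE replicate 3, a likeness for which they were chosen.

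TCH3 had other neighbours in pattern, at smaller distances. This distance is in log2 units and grows with the fold and spread of a gene, which were smaller for TCH3. Smaller distances for TCH3 therefore do not show a closer likeness in shape. The 5 nearest named genes were AT1G67920 (0.12), SAG21 (0.16), SYP122 (0.17), MKS1 (0.18) and AT3G59080 (0.19), which ranked between 1 and 6 among all tested probe sets. SAG21 is a senescence-associated gene of oxidative stress, SYP122 a syntaxin of vesicle fusion at the plasma membrane, and MKS1 a substrate of the MAP kinase MPK4. SYP122 read 473, 744 and 720 on KO replicates 1, 2 and 3 and 1831, 2283 and 1842 on OE replicates 1, 2 and 3. MKS1 read 200, 338 and 337 in KO and 758, 695 and 615 in OE, in the same order. All 5 genes, like TCH3, had their lowest KO value on replicate 1, but they were chosen by likeness to TCH3 over these same arrays. SAG21 was less even in OE than TCH3, with 3960, 4849 and 5884 on replicates 1, 2 and 3.

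CML38 and TCH3 were not near each other by this measure. Their distance was 0.82, which placed TCH3 at rank 72 of 540 from CML38 and CML38 at rank 310 of 540 from TCH3. That distance includes their unlike fold and spread. The nearest genes moved with the arrays used: without KO replicate 1, 2 of the 5 nearest to CML38 and 0 of the 5 nearest to TCH3 were found again.

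**Figure D4:**
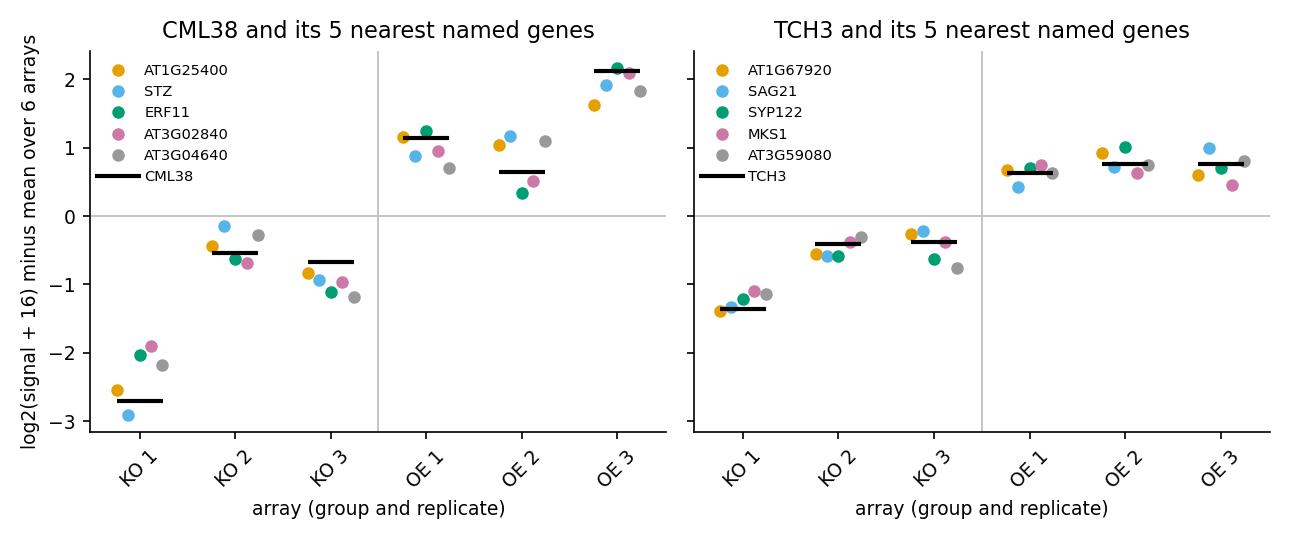
Log2(signal + 16) minus its mean over the 6 arrays for CML38 (left, black bars) and TCH3 (right, black bars) with the 5 nearest named genes of each (coloured points, shifted sideways for sight). The points around CML38 are lowest on KO replicate 1 and highest on OE replicate 3, while those around TCH3 are lowest on KO replicate 1 and lie above 0 on all 3 OE arrays.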

How the data were processed

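The value table holds the authors' intensity of each probe set on a linear scale, made with MAS5 per the submitters' processing notes, and used here as deposited. Array medians lay between 150 and 186, and the number of arrays limits the precision. The authors' deposited tables give an unadjusted p-value and an absolute fold for 341 probe sets up and 226 down, from a test not given in the sources used here. Their 48 columns of per-array values match no sample label and were not used. Of their 567 probe sets, 541 had 1 gene found in RefSeq, and no other probe set has a name here.

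OE and KO were compared with limma 3.58.1 in R 4.3.3 (eBayes with trend) on log2(signal + 16), which understates changes of dim probe sets. The 64 control probe sets and those with a mean at or below the 30th percentile were left out, which left 15922. P-values were two-sided and Benjamini-Hochberg adjusted over all 15922. The fit was tested on simulated data in which every probe set had the same spread and changes had a fixed size. Spread differed between probe sets on the real arrays, so that test does not show how steady the calls here are. The series calls the replicates independent and biological.

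The members and lists were chosen with earlier results of these data known. Named were CML38, TCH3, the genes of the lists on calcium sensors, kinases, channels, calmodulin binding, calcium ion binding, touch and low oxygen (of a list over 8, the 4 largest and the 2 smallest differences, besides genes singled out after their values were seen: iqd17, AT2G26190 and WRKY15), and the 5 nearest patterns of each member. The 17 calcium signalling genes are those of the first 5 lists without CML38 and TCH3. Alternatives were a common median, quantile normalization, pseudocounts of 1 and 64, other filters, each array left out, a replicate block and the 3' to 5' ratio as covariate.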

Additional observations from a re-analysis of the deposited data

How the results depend on the processing

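CML38 and TCH3 kept a positive log2 difference under all 12 alternatives run for them. With single arrays left out it ranged from 1.90 to 2.99 for CML38, from 1.11 to 1.60 for TCH3 and from 0.78 to 1.53 for the first minus the second. Each moved by more than the spread between replicates only with the 3' to 5' ratio as covariate, to 4.35, 2.01 and 2.34, and the cause was not tested. A common median moved the median of all tested probe sets from -0.08 to 0.09 and gave 2.78 and 1.60.

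Calls depended more on the setting. With single arrays left out, 66 to 548 probe sets were called higher and 7 to 852 lower, against 483 and 293 with all arrays. The common median gave 794 and 143, the ratio covariate 189 and 19, the replicate block 238 and 37, and no filter 261 and 76. Of the 17 calcium signalling genes, 2 to 14 were called higher and 0 to 2 lower with single arrays left out. The ratio covariate left 8 and 0, the replicate block left 9 higher, and the filter at the 50th percentile left 0 lower. Same-numbered arrays did not deviate together (correlations of -0.15, -0.05 and 0.04). Whether they shared a batch cannot be read from these values, so the block is not evidence on these genes.

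Of the 5 nearest patterns, 2 to 5 for CML38 and 0 to 3 for TCH3 were found again with single arrays left out. A pseudocount of 64 left 2 for each, and quantile normalization left 2 for TCH3.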
